A study of Homo sapiens with 20 samples.

Results

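The long noncoding RNA (lncRNA) genes MIR210HG, NEAT1, MALAT1, PVT1 and H19 were examined for chromatin binding of HIF1A, the oxygen-regulated subunit of hypoxia-inducible factor 1. The 5 genes were chosen by name from 18702 lncRNA genes of the GENCODE 44 annotation on GRCh37, and a peak was assigned to a gene when its centre lay between 10 kb upstream of the gene's start and 10 kb past its end. This rule found 36 of the 26484 peaks in the 8 lists of the series, 30 in hypoxia and 6 in normoxia. HIF1A ChIP-seq had been performed in HCT116 (colorectal carcinoma), RKO (colon carcinoma), A549 (lung adenocarcinoma) and H460 (lung large cell carcinoma) cells, 4 established cancer lines. Each was kept in normoxia or exposed to 1% O2 for 24 h, with 2 biological replicates per line and condition and 1 normoxic input library per line. The replicates of a line and condition were merged by the authors before peaks were called, so each value below has no replicate error. Every interval covers counting error only, and those on tag counts are exact Poisson 95% intervals. Values are normalized tag counts, that is, sequenced tags under the peak per 10000000 tags of the merged library.

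In low oxygen HIF1A escapes degradation, pairs with ARNT and binds hypoxia response elements, short DNA sites built on the core ACGTG or GCGTG, near genes of glycolysis, angiogenesis and survival. Some of its targets are not translated. MIR210HG is the host transcript of miR-210, the best known microRNA of the hypoxic response, which represses iron-sulfur cluster assembly and mitochondrial respiration genes. NEAT1 is the architectural RNA of nuclear paraspeckles, MALAT1 is an abundant RNA of nuclear speckles, PVT1 is a large locus beside MYC that contains several microRNA genes, and H19 is an imprinted, maternally expressed RNA.

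The merged libraries held 41242090 to 81528303 tags. Hypoxia lists had 3877 to 9171 peaks and normoxia lists 287 to 2092, and the peaks were 119 to 191 bp wide. The required fold over input was set by the authors at 14 for H460, 13 for A549, 7 for HCT116 and 6 for RKO, so the lists of different lines do not share a floor, and a gene without a listed peak has no value here. The free-text descriptions of the RKO and A549 input libraries name each other's line, whereas their titles do not, and all 4 input libraries, that of H460 included, carry HCT116 as their source. Which input served which line could not be checked in the merged lists, so folds over input in every line carry that doubt. The weakest listed peak of each list rested on 11 to 20 tags. Across all lncRNA genes, the share with a peak in the same window was in normoxia 0.733% (HCT116), 3.50% (RKO), 1.48% (A549) and 2.05% (H460). In hypoxia it was 9.44%, 15.1%, 11.6% and 9.65% in the same order.

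In hypoxia, HCT116 and RKO each had a peak at 4 of the 5 genes, and A549 and H460 each at 3. MIR210HG and NEAT1 had hypoxia peaks in all 4 lines, MALAT1 in HCT116, RKO and H460, PVT1 in HCT116 and A549, and H19 in RKO. In normoxia, a peak was called at 2 genes in RKO (MALAT1 and PVT1), at 1 in HCT116 (MIR210HG), at 1 in A549 (MALAT1) and at 0 in H460. The genes had been picked for their known link to hypoxia and with earlier results of these data known, so these counts are a description. Their windows ranged from 22.8 kb at MIR210HG to 413 kb at PVT1. When peaks that overlapped by at least 1 bp were joined, the 36 peaks formed 23 regions. Of these regions, 2 were called in all 4 hypoxia lists, 2 in 3, 1 in 2 and 14 in a single hypoxia list, and 4 were called in normoxia without a hypoxia peak at the same place in any line. Both regions called in all 4 lines lay in the MIR210HG window, and the weaker of them was nearer to the start of PHRF1.

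**Figure D1:**
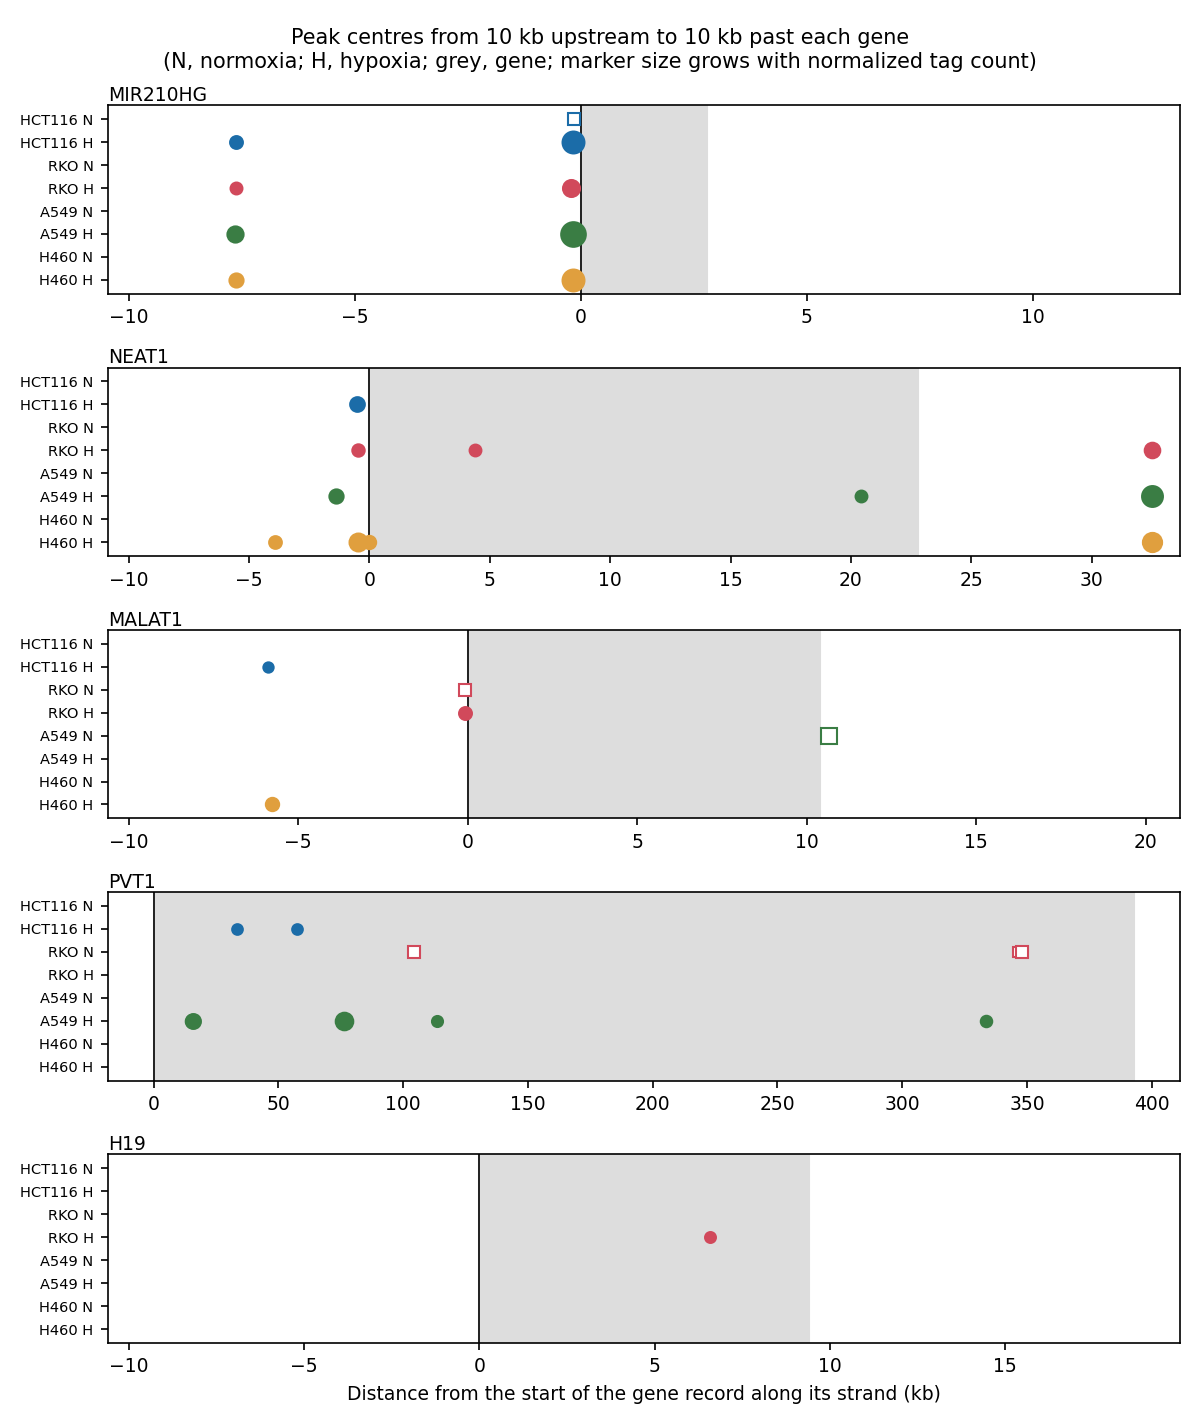
Centres of the 36 peaks along the 5 genes, as distance from the start of the gene record in kb (horizontal), for each list (vertical; N, normoxia, open squares; H, hypoxia, filled circles). Marker size grows with the normalized tag count and grey shows the gene. The MIR210HG window has peaks in the same 2 places in all 4 hypoxia lists, the more distant of which is nearer to the start of PHRF1. The PVT1 peaks of different lists do not coincide.

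The sequences at the peak centres that carry these results are given first, each as 200 bp of GRCh37 read in the direction of the gene named. Capitals mark the core of the hypoxia response element, ACGTG or GCGTG, on either strand (CACGT and CACGC when read on the other strand, and matches may share bases). The first 4 were shown because they were called in several lines, and the last because it was called in both conditions of RKO.
MIR210HG promoter (chr11:568527-568726, minus strand): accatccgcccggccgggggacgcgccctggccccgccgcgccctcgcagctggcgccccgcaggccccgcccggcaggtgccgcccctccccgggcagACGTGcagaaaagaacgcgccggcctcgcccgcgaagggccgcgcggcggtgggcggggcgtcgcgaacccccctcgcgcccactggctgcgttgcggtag
PHRF1 side of MIR210HG (chr11:576001-576200, plus strand): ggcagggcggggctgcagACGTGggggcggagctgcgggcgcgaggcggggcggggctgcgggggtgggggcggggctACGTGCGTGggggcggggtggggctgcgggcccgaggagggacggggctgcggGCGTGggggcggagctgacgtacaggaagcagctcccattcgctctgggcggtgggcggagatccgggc
NEAT1 promoter (chr11:65189658-65189857, plus strand): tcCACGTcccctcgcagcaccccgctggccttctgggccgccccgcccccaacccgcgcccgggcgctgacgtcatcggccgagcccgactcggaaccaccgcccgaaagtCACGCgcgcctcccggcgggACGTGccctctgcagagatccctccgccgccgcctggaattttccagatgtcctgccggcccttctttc
NEAT1 3′ side (chr11:65222660-65222859, plus strand): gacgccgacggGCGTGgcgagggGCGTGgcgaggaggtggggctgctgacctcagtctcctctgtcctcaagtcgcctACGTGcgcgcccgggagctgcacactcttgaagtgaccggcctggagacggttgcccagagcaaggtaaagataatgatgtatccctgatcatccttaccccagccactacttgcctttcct
MALAT1 promoter (chr11:65264930-65265129, plus strand): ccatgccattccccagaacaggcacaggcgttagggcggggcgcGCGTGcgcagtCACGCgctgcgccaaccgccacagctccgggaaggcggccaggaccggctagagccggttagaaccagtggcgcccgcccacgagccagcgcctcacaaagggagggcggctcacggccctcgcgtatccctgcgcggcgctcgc
The microRNA made from MIR210HG has 2 mature forms, shown from RefSeq (GRCh38.p14) with the seed, bases 2 to 8, in capitals.
hsa-miR-210-3p: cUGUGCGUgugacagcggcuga
hsa-miR-210-5p: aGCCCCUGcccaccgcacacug
Of the 4 microRNA genes that the annotation places inside the members on the same strand (MIR210 in MIR210HG, and MIR1205, MIR1207 and MIR1208 in PVT1), 1 had a RefSeq sequence.

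MIR210HG (chr11:565657-568457, minus strand) had the strongest peak of the 5 genes in every hypoxia list. The normalized tag count at its promoter was highest in A549 at 53.9 (interval 47.4 to 61.0), followed by 39.2 in H460 (33.9 to 45.2), 39.1 in HCT116 (35.0 to 43.7) and 18.4 in RKO (15.3 to 21.9). HCT116 and H460 had overlapping intervals, A549 was above all other lines, and RKO was below them. By tag count these peaks were number 41 of 5408 in A549, 139 of 3877 in H460, 19 of 3996 in HCT116 and 60 of 9171 in RKO. Among lncRNA genes with a hypoxia peak, ordered by their strongest peak, MIR210HG was number 30 of 2167, 88 of 1805, 17 of 1766 and 54 of 2819 in the same order of lines. The tag count was 13.9 times the median of all peaks in A549, 12.7 times in HCT116, 6.06 times in H460 and 5.59 times in RKO. RKO was also the line with the most input tags at this place, 7 against 2 to 6 in the other lines, and its fold over input was 9.89, against 66.88 in HCT116, 38.0 in A549 and 38.95 in H460. Relative to the region around the peak, RKO was closer to the others, with a local fold of 21.19 against 24.94 to 27.51. A common requirement of 14-fold over input would have removed the RKO peaks at MIR210HG and its HCT116 normoxia peak.

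The promoter peak sat just upstream of the gene and of the miR-210 hairpin. Its centre lay 170 bp upstream of the gene start in HCT116, 172 bp in A549, 173 bp in H460 and 205 bp in RKO, and all 9 annotated transcripts started within 500 bp of it. The MIR210 hairpin (chr11:568089-568198) began 429 to 464 bp downstream of the peak centre. The printed 200 bp held a single core, ACGTG at base 100, in a sequence of 81.5% GC with 34 CpG dinucleotides. The middle base of this core was 2 bp from the peak centre in HCT116, 4 bp in A549, 5 bp in H460 and 37 bp in RKO.

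The MIR210HG promoter was 1 of only 2 places at the 5 genes where a peak was called in both conditions of a line. In HCT116 the tag count was 4.77 in normoxia (33 tags, interval 3.28 to 6.70) and 39.1 in hypoxia (319 tags), and the intervals did not overlap. Binding in hypoxia was 8.20-fold higher (log2 ratio 3.04, 95% interval 2.52 to 3.60, adjusted p = 9.61e-49 by an exact two-sided conditional binomial test on unscaled tags, Benjamini-Hochberg over 37 peaks). This test compares a pair of merged libraries, not conditions across replicates. Of the 37 peaks called in both conditions of HCT116, 56.8% passed the same test with a higher value in hypoxia, the median log2 ratio was 0.79, and the MIR210HG ratio stood at percentile 94.4. The normoxia peak was at percentile 95.6 of its list, and its fold over input of 8.16 was close to the required 7. No normoxia peak was called at MIR210HG in RKO, A549 or H460, where the weakest listed normoxia peaks were 2.44, 2.91 and 2.44. However, A549 and H460 required 13-fold and 14-fold over input, which the HCT116 normoxia peak would not have reached. The part of this requirement in the missing calls was not tested.

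Another, weaker region was called in all 4 hypoxia lists and in no normoxia list. Its centre lay 7.62 to 7.64 kb upstream of MIR210HG and 369 to 395 bp upstream of PHRF1, a divergently placed protein-coding gene that encodes a PHD and RING finger protein. Thus it was in the MIR210HG window but nearer to the start of PHRF1, and which gene it serves was not tested. The tag count was again highest in A549 at 15.7 (12.3 to 19.7), followed by 9.91 in H460 (7.33 to 13.1), 6.87 in HCT116 (5.19 to 8.92) and 5.08 in RKO (3.52 to 7.10). A549 was above HCT116 and RKO beyond the intervals and overlapped H460, and HCT116 overlapped RKO. This region stood at percentile 91.4 in RKO, 90.6 in A549, 85.4 in HCT116 and 67.5 in H460. Its 200 bp held 4 cores, at bases 19, 79, 83 and 132, of which the middle pair overlap by 1 base, in 80.0% GC.

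**Figure D2:**
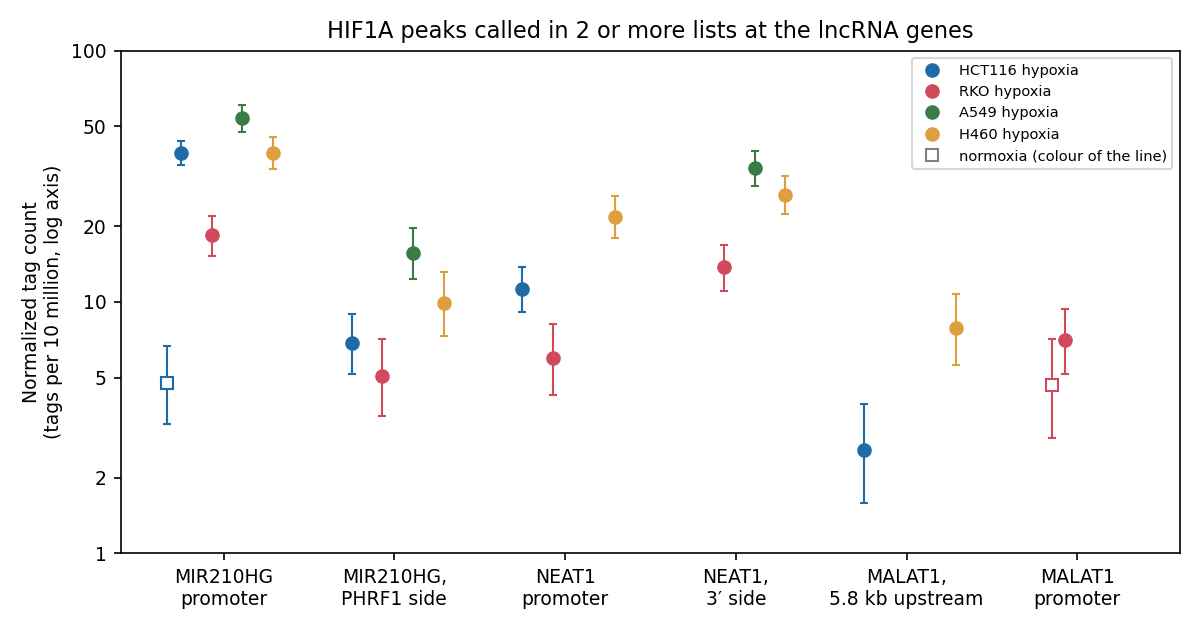
Normalized tag count (tags per 10000000, log axis) at the 6 regions called in 2 or more lists. Points are the merged libraries, filled for hypoxia and open for normoxia, and bars are exact Poisson 95% intervals for counting error. The MIR210HG promoter is highest, at 18.4 to 53.9 in hypoxia against 4.77 in the only normoxia list with a peak there.

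Libraries of different lines differ in their overall signal, and differences in binding and in immunoprecipitation efficiency cannot be told apart here. Each ratio between lines was therefore set beside the ratios of all peaks that the lines shared. Between HCT116 and H460 the shared peaks were higher in H460, with a median log2 ratio of 1.02 over 809 peaks, whereas the MIR210HG promoter had a log2 ratio (H460 over HCT116) of 0.00, at percentile 6.19. Its log2 ratio of RKO over HCT116, -1.09, was at percentile 6.98 of 631 shared peaks, whose median was -0.12. For A549 over HCT116 its log2 ratio was 0.46, at percentile 24.2 of 629 peaks with a median of 0.94. The promoter was therefore stronger in HCT116, relative to the other peaks that each pair of lines shared, than in RKO or H460. For H460 over RKO its log2 ratio of 1.09 was close to the median of 1.11. The first 3 of these ratios share the HCT116 library, and no test was run across lines, each of which has 1 merged list per condition. At the weaker region on the PHRF1 side, the log2 ratio of A549 over HCT116 was 1.19, against a shared median of 0.94 (percentile 62.4). For A549 over RKO it was 1.63 there, against 1.02 (percentile 79.6).

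NEAT1 (chr11:65190245-65213011, plus strand) had 11 hypoxia peaks in 7 regions and no normoxia peak. Both of its recurrent regions lay outside the transcribed sequence, 1 at the promoter and 1 on the 3′ side. The promoter region was called in HCT116, RKO and H460, centred 468 to 503 bp upstream of the start. The tag count there was 11.3 in HCT116 (9.10 to 13.8), 5.98 in RKO (4.27 to 8.14) and 21.8 in H460 (17.9 to 26.4). The 3 intervals did not overlap, and H460 was highest. The log2 ratio of H460 over HCT116 was 0.95, against a median of 1.02 for their shared peaks (percentile 45.5). For H460 over RKO it was 1.87 against 1.11 (percentile 84.3), and for RKO over HCT116 -0.92 against -0.12 (percentile 11.3). The percentiles within the lists ran in another order, 94.1 in HCT116, 93.5 in RKO and 89.6 in H460. The 200 bp held 3 cores, CACGT at base 3, CACGC at base 112 and ACGTG at base 132.

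A549 had no peak at this promoter region. Its list required 13-fold over input, which the promoter peaks of HCT116 (12.86) and RKO (7.5) would not have reached, unlike that of H460 (64.06). The part of this requirement in the missing A549 call was not tested. The nearest A549 peak was centred 1375 bp upstream of NEAT1, with a tag count of 10.1 (7.42 to 13.4) and no core in its 200 bp. With a local fold of 3.05, this peak just passed the required 3. It lay 49 bp upstream of an lncRNA gene without a symbol. H460 had a further peak 36 bp upstream of the start (7.89, 5.61 to 10.8), with no core, and a peak 3931 bp upstream (6.67, 4.59 to 9.37), with 2 cores.

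The 3′ side region was the strongest NEAT1 peak in the 3 lines that had it. It was centred 9731 to 9749 bp past the end of the gene, just inside the 10 kb limit, and 14 to 32 bp downstream of the start of another lncRNA gene without a symbol, over the FAU pseudogene FAUP4. In A549 the tag count reached 34.1 (29.0 to 39.9), while H460 had 26.7 (22.3 to 31.7) and RKO had 13.8 (11.1 to 16.9). RKO was below the other lines, whose intervals overlapped, and HCT116 had no peak there. The log2 ratio of H460 over RKO was 0.95, against a median of 1.11 for their shared peaks (percentile 40.6). For A549 over RKO it was 1.31, against 1.02 (percentile 64.9). Within their own lists the tag counts stood at percentile 97.7 in A549, 93.0 in H460 and 98.9 in RKO. The local fold reached 30.88 in A549, 21.11 in RKO and 47.1 in H460, the last being the highest of all 36 peaks. The 200 bp held GCGTG at bases 12 and 24 and ACGTG at base 79. The nearest gene start was that of the neighbouring lncRNA gene, not of NEAT1. Without this region A549 would have had 2 NEAT1 peaks, of 10.1 and 4.94, neither with a core.

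Inside NEAT1, 1 peak was called in RKO, 4391 bp from the start (4.93, 3.40 to 6.93, 2 cores), and 1 in A549, 20.4 kb from the start (4.94, 3.13 to 7.41, no core). Each was called in a single line and stood in its list at percentile 90.9 and 65.2, respectively.

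MALAT1 (chr11:65265111-65275544, plus strand) showed a different place in each group of lines, and no place was called in more than 2 lists. At its promoter a peak was called in RKO only, in both conditions. The tag count was 4.66 in normoxia (21 tags, 2.88 to 7.12) and 7.03 in hypoxia (47 tags, 5.16 to 9.34), and the intervals overlapped. The ratio of 1.51 (log2 0.59, 95% interval -0.18 to 1.41) did not pass the test (adjusted p = 0.518, exact conditional binomial test over 98 peaks). Of those 98 RKO peaks, 14.3% passed with a higher value in hypoxia, and the median log2 ratio was 0.215. These counts did not separate the RKO libraries at MALAT1. Both peaks were centred within 91 bp upstream of the gene start, stood at percentile 91.6 in normoxia and 95.1 in hypoxia, and held GCGTG at base 45 and CACGC at base 56 of a CpG-rich sequence (26 CpG in 200 bp).

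In HCT116 and H460 the peak in the MALAT1 window lay about 5.8 kb upstream of the gene. The nearest gene start was that of an lncRNA gene without a symbol, 1309 bp from the centre in HCT116 and 1187 bp in H460. The tag count was 2.58 in HCT116 (1.59 to 3.94), at percentile 12.4 of its list, and 7.89 in H460 (5.61 to 10.8), at percentile 60.1. The centres were 122 bp apart, and the core ACGTG was 45 and 77 bp from them. In the H460 window this core ran into a dinucleotide repeat of 25 bp, and the sequence was 50.0% GC with 4 CpG. In A549 the only MALAT1 peak was in normoxia. It was centred 239 bp past the end of the gene, 880 bp upstream of the start of TALAM1, the RNA antisense to MALAT1, with a tag count of 15.3 (11.7 to 19.5) from 63 tags over 2 input tags. Its local fold was 4.87. No A549 hypoxia peak was called anywhere in the MALAT1 window.

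PVT1 (chr8:128806772-129199347, plus strand) had 10 peaks in 10 regions, all inside introns and none within 2.5 kb of the gene start. No region was called in more than 1 list. A549 in hypoxia had 5 peaks. The strongest, 76.4 kb from the start, had a tag count of 20.4 (16.5 to 24.9), stood at percentile 93.5 and had a core 3 bp from its centre. The next pair lay close together, 15.3 and 15.9 kb from the start, with tag counts of 8.37 (5.96 to 11.4) and 11.8 (8.90 to 15.4) and a core 17 and 10 bp from the centre. The remaining A549 peaks, at 113 and 333 kb, were weak, with tag counts of 3.65 and 4.29 from 17 and 20 tags, and had no core. Hence the 3 stronger A549 peaks had a core and the weaker pair had none.

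HCT116 in hypoxia had 2 PVT1 peaks, 33.4 and 57.2 kb from the start, each with 25 tags and a tag count of 3.07 (1.98 to 4.53), at the median of its list. RKO had 3 PVT1 peaks in normoxia (4.66, 3.99 and 3.55, at 104, 348 and 346 kb) and none in hypoxia, although its hypoxia list was the longest of the 8. Of the RKO normoxia peaks, 1 had a core. In that list 17.7% of all peaks had a core, against 18.6% of flanking windows. H460 had no PVT1 peak in either condition. Since PVT1 is long (393 kb), it was set beside the 1427 lncRNA genes of at least 100 kb. Of these, 40.5% were called in hypoxia in RKO, 24.5% in A549, 15.8% in H460 and 13.8% in HCT116. In RKO normoxia, where the RKO PVT1 peaks were found, 11.4% were called. The set was not matched to the length of PVT1. The density in the PVT1 window was 12.1 peaks per Mb in A549 hypoxia against 1.75 over the genome, and 4.85 against 1.29 in HCT116 hypoxia. In RKO it was 7.27 against 0.676 in normoxia and 0 against 2.96 in hypoxia.

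H19 (chr11:2016396-2025782, minus strand) had 1 peak, in RKO hypoxia, with a tag count of 3.44 (2.18 to 5.16) from 23 tags. It stood at percentile 67.0, and its fold over input of 6.47 was close to the required 6. The centre was 6582 bp into the gene record, in an intron. However, the record begins at its most distant transcript, and 14 of its 31 transcripts started within 500 bp of the peak, the nearest 95 bp downstream. No H19 peak was called in HCT116, A549 or H460 in either condition, or in RKO in normoxia.

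**Figure D3:**
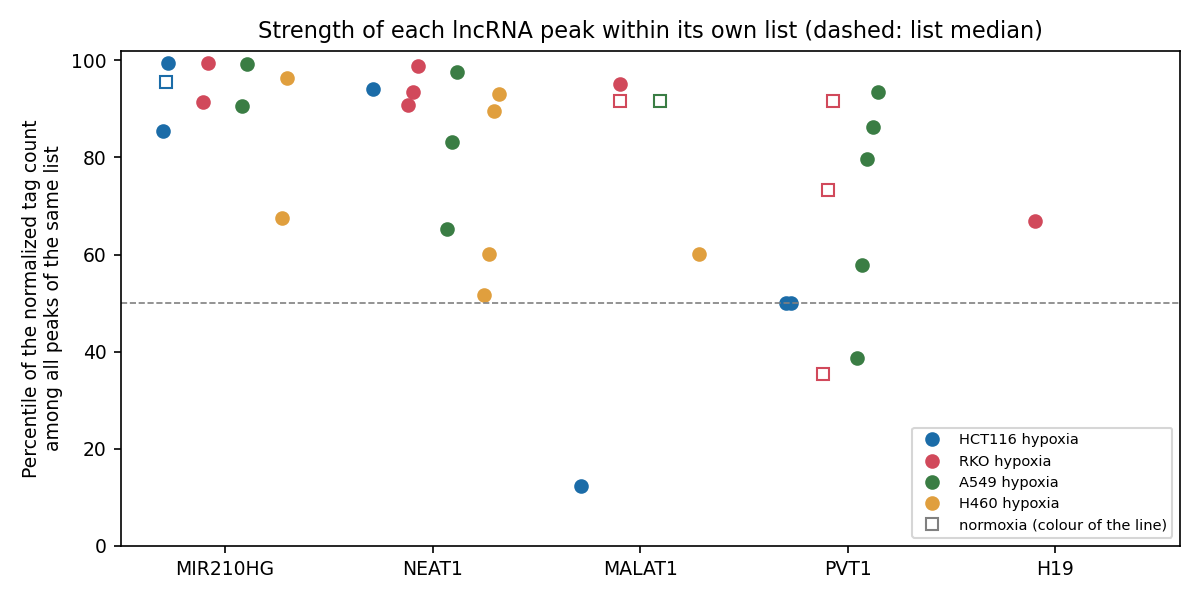
Percentile of each peak's normalized tag count among all peaks of its own list (vertical), by gene (horizontal) and line (colour), filled for hypoxia and open for normoxia. The dashed line is the list median. All 4 MIR210HG promoter peaks in hypoxia are at percentile 96.4 or above, and MALAT1 in HCT116 is lowest, at 12.4.

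Over all members, 14 of the 30 hypoxia peaks stood at or above percentile 90 of their list and 2 were below percentile 50. The median percentile was 93.5 in RKO, 84.8 in A549, 67.7 in HCT116 and 67.5 in H460, where all peaks of a list have a median of 50 by definition. When peaks were ordered by fold over input instead, the median fell below that of the list in RKO, to 23.5, and was 54.3 in A549, and by local fold it was 51.6 in A549. The order of the genes by their strongest hypoxia peak was MIR210HG, NEAT1, MALAT1 and H19 in RKO, MIR210HG, NEAT1 and PVT1 in A549, MIR210HG, NEAT1 and MALAT1 in H460, and MIR210HG, NEAT1, PVT1 and MALAT1 in HCT116. The intervals of neighbours in this order overlapped for MIR210HG and NEAT1 in RKO (18.4 against 13.8) and for PVT1 and MALAT1 in HCT116 (3.07 against 2.58). Those of MALAT1 and H19 in RKO met at 5.16, and the other neighbours did not overlap. MALAT1 was placed in HCT116 and H460 by its upstream region, which is nearer to the start of another lncRNA gene. The place of NEAT1 rested on its 3′ side region in RKO and A549. Without that region, an alternative chosen after seeing the data, NEAT1 came after PVT1 in A549 (10.1 against 20.4) and after MALAT1 in RKO (5.98 against 7.03, with overlapping intervals), and its place in H460 was the same (21.8).

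Cores of the hypoxia response element were found in the 200 bp at the centre of 7 of 7 hypoxia peaks in RKO, 6 of 7 in H460, 5 of 6 in HCT116 and 6 of 10 in A549. Among all peaks of the same lists, 30.5%, 76.9%, 65.1% and 52.4% had a core, and among windows 2000 bp to either side 19.5%, 24.2%, 23.7% and 21.8%. By gene window, a core was present at 8 of 8 MIR210HG, 8 of 11 NEAT1, 3 of 3 MALAT1, 4 of 7 PVT1 and 1 of 1 H19 hypoxia peaks. The MIR210HG count includes the region nearer to PHRF1. The hypoxia peaks share sequence where lines were called at the same place. Each core contains a CpG, and the printed windows were 61.5 to 81.5% GC with 14 to 34 CpG. Neither all peaks of a list nor the flanking windows were matched to them in composition or place. The part of composition in these shares was not tested. A letter match does not show a bound site.

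**Figure D4:**
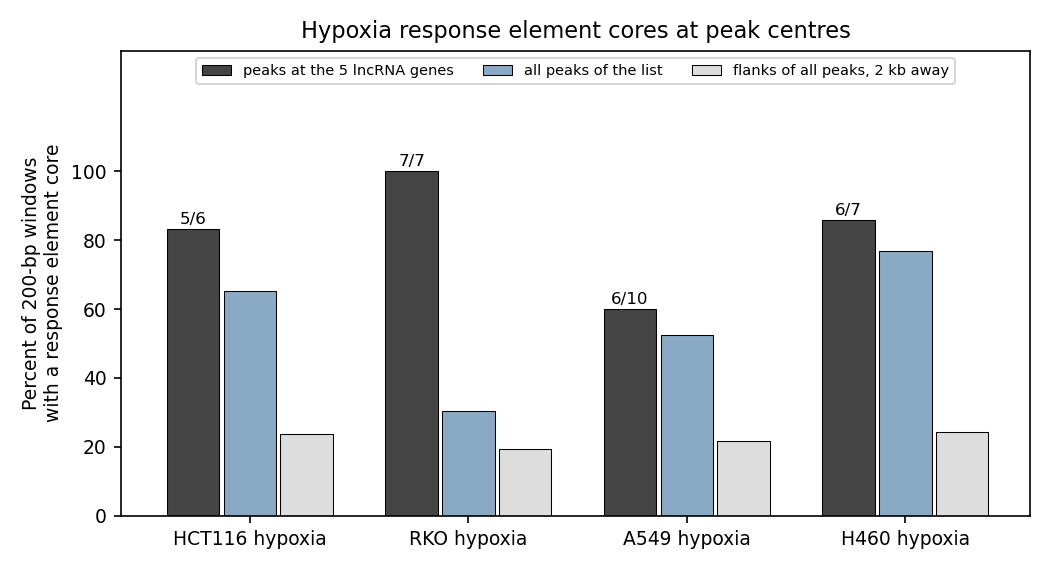
Percent of 200-bp windows at peak centres that held ACGTG or GCGTG on either strand, for peaks at the 5 genes (dark, with counts), all peaks of the hypoxia list (blue) and windows 2 kb away (grey). RKO has 7 of 7 at the 5 genes, against 30.5% of its list. The backgrounds were not matched for GC content or place.

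Of the 36 peaks, 12 were within 2.5 kb of the start of their own gene, and 22 were within 2.5 kb of the start of some gene. By position, 19 were upstream of their gene, 2 in exons, 11 in introns and 4 past the 3′ end. The MIR210HG and MALAT1 hypoxia peaks were all upstream, the PVT1 peaks all intronic, and NEAT1 had 6 upstream, 2 exonic and 3 downstream.

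Other lncRNA genes give a scale for these counts. Of 82 other genes named as microRNA host genes, 38 were called in hypoxia in 1 line or more, 4 of them in 3 lines and 3 in all 4. In HCT116, RKO, A549 and H460, 17.1%, 28.0%, 20.7% and 18.3% of them had a hypoxia peak, above the share of all lncRNA genes, but their median length was 28.8 kb against 6.23 kb, and the part of length was not tested. Among the host genes called in hypoxia in 2 lines or more, the highest were MIR29B2CHG, host of miR-29b and miR-29c, with tag counts of 44.5 in H460 and 21.3 in A549, and MIR583HG, called in all 4 hypoxia lists with 35.6 in H460, 35.4 in A549, 10.0 in RKO and 8.71 in HCT116. They were followed by MIR193BHG, also in all 4 (17.2, 7.3, 5.53 and 4.54 in the same order), MIR497HG in A549 (12.5) and RKO (3.59), MIRLET7A1HG in H460 (11.9) and HCT116 (3.19), and MIR130AHG in A549 (10.5) and H460 (9.1). Of these, MIR29B2CHG exceeded MIR210HG in H460 by its strongest peak in the window, and none did in HCT116, RKO or A549. However, the strongest peak lay 73103 bp from the gene start at MIR29B2CHG, 19592 bp at MIR130AHG, 17995 bp at MIR583HG and 4803 bp at MIR497HG. The last was 361 bp from the start of another gene. At MIR193BHG and MIRLET7A1HG the distance was 351 and 747 bp.

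Of 14 other lncRNA genes linked to hypoxia, 8 were called in hypoxia in 1 line or more (57.1%), against 30.4% of all lncRNA genes. In HCT116, RKO, A549 and H460 the share was 35.7%, 42.9%, 21.4% and 14.3%. Their median length was 13.9 kb, against 6.23 kb for all lncRNA genes, and they were chosen with earlier results of these data known. The part of length and of this choice in the shares was not tested. LUCAT1 had strongest tag counts of 58.6 in H460, 56.0 in A549, 29.1 in HCT116 and 21.7 in RKO, and HIF1A-AS3, at the HIF1A locus, had 53.4, 46.4, 38.9 and 15.1. UCA1 was called in HCT116 (18.5) and RKO (4.63), and SNHG3 in RKO (16.3) and HCT116 (4.29). In normoxia, RKO had an SNHG3 peak of 17.1 and A549 a LUCAT1 peak of 15.3. The strongest LUCAT1 peak lay 33892 bp inside the gene, 426 bp from the start of another lncRNA gene without a symbol.

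The lncRNA genes most like each member over the 8 lists were found by the Euclidean distance of log2(strongest tag count + 1), with 0 where no peak was called, among 6185 lncRNA genes with a peak in any list. For MIR210HG these were BHLHE40-AS1 (distance 2.27) and a pair that share their peaks, HIF1A-AS3 and an lncRNA gene without a symbol (2.59). BHLHE40-AS1 had tag counts of 4.19 in HCT116 normoxia and 31.5, 13.8, 61.8 and 67.7 in the hypoxia lists of HCT116, RKO, A549 and H460. For NEAT1 the 3 nearest genes had no symbol (0.441 to 0.657). The NEAT1 values used in RKO, A549 and H460 were those of its 3′ side region, which is nearer to the start of another lncRNA gene. For MALAT1 they were a gene without a symbol (2.12), SNHG19 (2.45) and LINC00513 (2.47), for PVT1 3 genes without a symbol (1.54 to 2.30), and H19 shared its single value exactly with 133 genes, among them APTR, BACH1-IT1 and BCL10-AS1.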

How the data were processed

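HIF1A ChIP-seq and input libraries were sequenced as single ends. Reads were aligned by the authors to GRCh37/hg19 with Bowtie2 2.2.9, filtered for mapping quality above 10, and marked for duplicates. The submitters' processing notes also list FastQC 0.11.5, SAMtools 1.3.1, Picard 1.129 and HOMER 4.3. The 2 replicates of each line and condition were combined, and peaks were called with HOMER in factor mode against input (local fold of at least 3 over 10000 bp, false discovery rate 0.001). The signal column deposited by the authors holds tags per 10000000 tags of the merged library, beside input tags scaled to the smaller of the ChIP and input libraries (0.5 where there was none), and the ratio columns hold the authors' fold over input and over the local region.

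From these 8 lists, peaks were assigned to genes by their centre, unscaled tags were recovered from the library total, and peaks of the 2 conditions that overlapped by at least 1 bp were compared with an exact conditional binomial test (SciPy 1.17.1) with Benjamini-Hochberg adjustment at 0.05 over all such peaks of the line. The test was checked on simulated counts. Regions called in several lists were joined over at least 1 bp. Genes were taken from GENCODE 44 lifted to GRCh37, and sequence was read with pyfaidx 0.9.0.4 from a GRCh37 genome. Intervals on tag counts are exact Poisson intervals at 95%. Percentiles are among all peaks of a list. Beyond the 5 members, genes were named when their start was nearest to a member peak, when they were among at most 10 microRNA host genes or listed hypoxia lncRNAs with a hypoxia peak in at least 2 lines, or when they were among the 3 most alike lncRNA genes. Of 15 listed hypoxia lncRNAs, 14 had a gene record. The members and lists were chosen with earlier results of these data known. Libraries were grouped by their titles. Some sequences and neighbouring peaks are not reported here. The alternatives tried were other flanks, any overlap, stricter folds, tags per bp, centred ratios, other percentiles, other motif windows and, added after seeing the data, the order of genes without the NEAT1 3′ side region.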

Additional observations from a re-analysis of the deposited data

Results flagged for a closer look

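Among 14 measures compared over the 4 lines, some values stood apart from the other 3 lines by Dixon's gap ratio. Chance does this for about 1 in 20 groups of continuous values. Where 3 lines tie, as in the peak counts below, any differing line is flagged whatever its distance. Such a flag adds nothing to the counts themselves, which also come from lists with different required folds over input. The percentile of the MIR210HG promoter in hypoxia was lower in H460, at 96.4, than in the other lines (99.3 to 99.5). The number of hypoxia peaks at MALAT1 was 0 in A549 and 1 in each other line. The number of hypoxia peaks at H19 was 1 in RKO and 0 elsewhere. The number of normoxia peaks at MIR210HG was 1 in HCT116 and 0 elsewhere. The number of normoxia peaks at PVT1 was 3 in RKO and 0 elsewhere.

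At 2 genes the lines moved in opposite directions between conditions, and the difference was not tested. At PVT1, the count of hypoxia peaks minus normoxia peaks was 2 in HCT116 and 5 in A549, but -3 in RKO. At MALAT1 it was 1 in HCT116 and in H460, but -1 in A549. The RKO normoxia peaks at PVT1 came from a list in which 17.7% of all peaks held a response element core, against 18.6% of flanking windows. The part of this in the calls was not tested.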

How the results depend on the processing

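No paired analysis was possible because the authors merged the replicates of each line and condition, and for the same reason no replicate could be left out. Of 90 values recomputed under other settings, 71 stayed within the limits set for an unchanged result and 19 moved. These limits were wide. With flanks of 2.5 and 50 kb, 4 and 9 peaks in HCT116 hypoxia counted as unchanged from 6, and 5 and 9 in RKO hypoxia from 7. A median percentile counted as unchanged within the standard deviation of the member peaks. A log2 ratio did so when its direction and its side of the threshold held. The RKO median percentile went from above to below the list median of 50. When all lists had to reach 14-fold over input, peaks at the 5 genes numbered 3 instead of 6 in HCT116 hypoxia, 0 instead of 1 in HCT116 normoxia, 2 instead of 7 in RKO hypoxia and 1 instead of 4 in RKO normoxia, and genes with a hypoxia peak numbered 2 instead of 4 in HCT116 and in RKO. The RKO peaks at MIR210HG were among those lost. With a local fold of at least 6, peaks numbered 3 in HCT116 hypoxia, 5 instead of 10 in A549 hypoxia and 0 in each of the HCT116, RKO and A549 normoxia lists, and genes with a hypoxia peak numbered 2 in HCT116. With this local fold neither peak called in both conditions remained to be tested. A flank of 2.5 kb left 3 of 7 H460 hypoxia peaks. The median percentile fell from 93.5 to 23.5 in RKO and from 84.8 to 54.3 in A549 when peaks were ordered by fold over input, and to 51.6 in A549 when ordered by local fold. The cause of these shifts in percentile was not tested. Without the NEAT1 3′ side region, chosen after seeing the data, the strongest NEAT1 peak was 5.98 instead of 13.8 in RKO, 10.1 instead of 34.1 in A549 and 21.8 instead of 26.7 in H460. The log2 ratio was 2.25 to 3.40 at the MIR210HG promoter in HCT116, past the threshold each time, and 0.36 to 0.59 at MALAT1 in RKO, not past it (adjusted p = 0.495 to 0.819, exact conditional binomial test). Peaks of 16 to 25 tags, as at 7 of the 10 PVT1 peaks and at H19, have wide counting intervals (2.18 to 5.16 around 3.44 at H19).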

Other observations

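Several hypoxia peaks lay beyond the 10 kb windows but within 50 kb of a member. Upstream of NEAT1, the promoter of FRMD8, a gene for a FERM domain protein, had a peak in HCT116 (6.26) and H460 (3.84), 36.2 and 36.3 kb from NEAT1. Between NEAT1 and MALAT1, RKO had a peak of 6.58 that was 32.0 kb past NEAT1, 20.1 kb before MALAT1 and 56 bp from the start of an lncRNA gene without a symbol. HCT116 had 2 weak peaks around MIR210HG, of 2.94 and 2.82, at 47.0 and 25.9 kb. The only peaks near PVT1 and H19 outside their windows were 1 in RKO, 41.4 kb from PVT1 (3.59), and 1 in H460 at the promoter of MRPL23, a mitochondrial ribosomal protein gene, 47.9 kb from H19 (8.29).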
